A study of Mus musculus with 3 samples.

Results

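Basal and myoepithelial marker genes of the mammary gland were read on 3 two-colour arrays of EpH4-PR cells. The genes were Trp63, Acta2, Actg2, Myh11, Mylk, Cnn1, Cnn2, Tagln, Oxtr and Mme, and every array probe that carries one of these names was kept, apart from the other probes of the same gene. They had 20 probes among the 41174 probes of the array, with 1 probe for 4 genes, 2 for 3 genes, 3 for 2 genes and 4 for Acta2. The keratins, which also mark basal cells, were left out of this set and appear only as a check.

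EpH4 is a mouse mammary epithelial cell line, and EpH4-PR cells carry a stably transfected progesterone receptor, with clones selected after transfection. Whether the arrays hold 1 clone is not given in the sources used here. The cells were kept in DMEM with 10% FBS until they were about 75% confluent. EpH4-PR RNA was labelled with Cy5 and a commercial mouse reference RNA (Stratagene mouse standard) with Cy3 on replicates 1, 2 and 3, and dyes were not swapped. The empty-vector line EpH4-EV was not analysed here. Each ratio therefore compares EpH4-PR RNA with the reference RNA and does not measure an effect of the receptor, and dye and RNA source cannot be told apart. No source used here says that the arrays came from separate cultures, so p-values measure only the spread between these arrays.

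The mammary epithelium has an inner luminal layer that makes milk and an outer basal layer of myoepithelial cells. Myoepithelial cells contract in response to oxytocin and push milk along the ducts. They build a smooth muscle apparatus, in which actin filaments slide over a smooth muscle myosin once myosin light chain kinase has phosphorylated the myosin light chain, while calponin and transgelin bind the filaments. The transcription factor p63 maintains the basal layer, and serum response factor acts on many smooth muscle genes through the CArG box in their promoters.

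The set did not move as 1 block. Of the 20 probes, 4 were called lower in EpH4-PR RNA than in the reference, which is 20% of the probes, where 3.83% of all probes were called lower. These were both Tagln probes, 1 Acta2 probe and 1 Mylk probe, with log2 ratios between -2.16 and -1.09. All but Tagln A_51_P450527 were dim in EpH4-PR, at 1.14 to 1.68 times the negative control spots. No member probe was called higher, where 2.26% of all probes were, and the remaining 16 were not called. A probe was called where limma gave an adjusted p under 0.05 (Benjamini-Hochberg over all probes) and the RNAs differed by 1 log2 unit or more. Regardless of size, 4 of the 20 member probes lay above 0 and 7 below at an adjusted p under 0.05, where 25.7% and 24.6% of all probes did. At an unadjusted p under 0.05 there were 4 above and 9 below, against 29% and 28.4% of all probes. The methods' test was run per probe without the shared spread. With the same limit of 1 log2 unit and an unadjusted p of 0.05 or less, it called 0 higher and 4 lower. After Benjamini-Hochberg adjustment it called 0 higher and 3 lower, and Mylk A_52_P145912 was no longer called. The median log2 ratio of the member probes was -0.11, and that of all probes was -0.01. The counts depended on processing described below. Median centring in place of loess gave 3 member probes higher and 2 lower, against 7031 and 708 of all probes. The normexp background correction with offset 0 gave 1 higher and 7 lower, against 3125 and 3905 of all probes.

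By the scanner software's flag, most of the marker genes were detected. In the EpH4-PR channel it put 12 probes of 8 genes well above background on every array, 2 on some arrays and 6 on none. Of these 8 genes, Acta2, Actg2, Cnn2 and Tagln had a probe in that channel at 16.7 times the negative control spots or more. Trp63, Myh11, Mylk and Cnn1 read at most 2.77 times them, so the flag alone does not place these genes clear of those spots. Oxtr had no probe well above background in that channel, and of the Mme probes 1 was above it on 2 of 3 arrays. No member spot was saturated. The SD of the log2 ratio between arrays ran from 0.02 to 0.35, with a median of 0.11 for the members and 0.09 for all probes. Since RNA was taken from whole cultures, fewer cells that express a gene and less RNA of it per cell cannot be told apart.

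**Figure D1:**
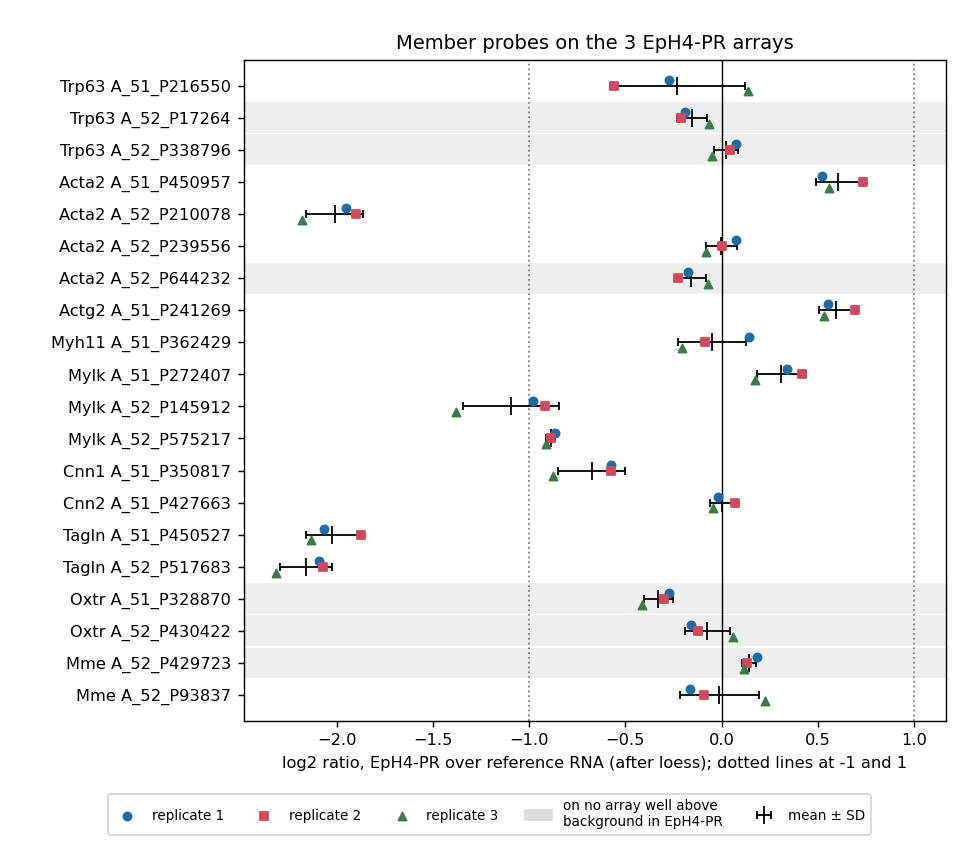
Ratio of EpH4-PR to reference RNA on the log2 scale (x axis) for each of the 20 member probes (y axis) on replicates 1, 2 and 3, with the mean and SD as a cross and bar. Grey bands mark the 6 probes that were on no array well above background in EpH4-PR. The Tagln probes and Acta2 A_52_P210078 lie near -2 on all 3 arrays, and no probe has a mean above 0.60.

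The plot of log2 ratios by probe shows that the spread between arrays was small beside the distance between probes. The largest spread was that of a Trp63 probe, whose arrays fall on both sides of 0.

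Several array facts touch these values. The median Cy5 intensity of all spots was 112, 113 and 93.8 on replicates 1, 2 and 3. Negative control spots had medians of 72.6, 74.1 and 57.3 in Cy5 and of 119, 121 and 91.8 in Cy3, so a member intensity is given below also as a multiple of it. The log2 ratios of all probes correlated at 0.923 to 0.952 (Pearson r) between pairs of arrays, across probes that are not independent replicates. Loess, which removes the trend of the ratio with brightness, gave 932 probes higher and 1578 lower, with 37.1% of the calls higher. Median centring in its place gave 7031 higher and 708 lower (90.9% higher), and the log ratio that the scanner software itself computed (the scanner ratio) gave 48.2% of calls higher. The direction of a bright probe can therefore rest on the scaling, and the value under median centring is given for each named gene whose call it changes.

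The sequences below show the promoters in which a CArG box was found, since this box is the element shared by many smooth muscle genes. The RefSeq promoter table (build GRCm38.p6, from 250 bases before to 50 after the transcription start) held 6 of the 10 genes. It had no promoter for Trp63, Myh11, Tagln and Actg2, so whether these hold a box was not tested. The table was searched for CC, then 6 bases that are A or T, then GG, a pattern that reads as itself on both strands. Such a box was in 1.63% of all 32851 promoters, and a box with 1 middle base other than A or T was in 8.50%. The promoter windows of Cnn1, Mylk, Oxtr and Mme held neither form. In Acta2, on the minus strand at chr19:34255374-34255477, there were 2 boxes of the second form, which begin 84 and 34 bases before the start, and 0.822% of all promoters held 2 or more boxes of either form. In Cnn2, on the plus strand at chr10:79988524-79988599, there was 1 box of the first form, which begins 56 bases before the start. The stretch up to the start is printed 5′ to 3′ with the boxes in capitals.
Acta2: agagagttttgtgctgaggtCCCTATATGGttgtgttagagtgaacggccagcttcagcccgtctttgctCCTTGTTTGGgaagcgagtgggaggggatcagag
Cnn2: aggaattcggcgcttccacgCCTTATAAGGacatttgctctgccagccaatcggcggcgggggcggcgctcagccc
A match describes these letters only, and binding was not measured.

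Trp63 encodes p63, the transcription factor of the basal layer. Its probes gave no call in either direction. Probe A_51_P216550 was the only one of the 3 that was well above background in EpH4-PR on every array, and its Cy5 intensity of 158, 146 and 135 was 2.17, 1.97 and 2.36 times the negative control. The log2 ratio was -0.27, -0.56 and 0.14 on replicates 1, 2 and 3. The arrays thus fell on both sides of 0, with a mean of -0.23 ± 0.35 (SD, n = 3, limma adjusted p = 0.211), and the mean was 0.11 under median centring. The other probes, A_52_P17264 and A_52_P338796, read 0.942 to 1.04 times the negative control in Cy5. Their mean log2 ratios were -0.16 and 0.02, the latter -0.17 under median centring, and neither RNA was well above background on more than 1 array. On these probes Trp63 was not well above background in EpH4-PR RNA.

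Acta2 encodes smooth muscle alpha-actin, the defining filament protein of myoepithelial cells. Its 4 probes disagreed. Probe A_51_P450957 was bright, with Cy5 intensities of 6064, 6353 and 6037, which were 83.5, 85.7 and 105 times the negative control, and Cy3 intensities of 1437, 1345 and 1408. Its log2 ratio was 0.52, 0.73 and 0.56. All arrays were above 0, at a mean of 0.60 ± 0.11 (SD, n = 3, limma adjusted p = 0.000882), short of the log2 ratio of 1 that a call needs. Before loess its mean log2 ratio was 2.18, and under median centring it was called higher at 2.03.

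Probe A_52_P210078 of Acta2 went the other way. Its Cy5 intensity was 82.4, 84.3 and 68.4, or 1.14, 1.14 and 1.19 times the negative control, against 2.18, 2.04 and 2.50 times in Cy3. On the log2 scale its ratio was -1.96, -1.90 and -2.18. Every array was far below 0, and the probe was called lower at -2.01 ± 0.15 (SD, n = 3, limma adjusted p = 3.85e-05). It was well above background in EpH4-PR on 1 of 3 arrays and in the reference on all 3, so its level in EpH4-PR RNA lay near the background and no fold is given. The size of the ratio depended on the setting, from -1.74 under median centring to -3.58 with normexp offset 0 and -4.31 with the scanner ratio. With the main processing, on the same array the first probe's log2 ratio exceeded this one's by 2.62 ± 0.13 (SD, n = 3), with every array between 2.48 and 2.74.

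The other Acta2 probes lay near 0. A_52_P239556, flagged well above background in both channels on every array, had a mean of -0.00 ± 0.08 (SD, n = 3) and turned to 0.02 under median centring. A_52_P644232 was in neither channel well above background on any array. Another probe carries the name 0610041G09Rik, which RefSeq lists as Acta2, so the rule on names left it out and it was looked up after the member values had been seen. A_52_P420504 had Cy5 intensities of 849, 845 and 817 and Cy3 intensities of 2144, 2060 and 2134. Its log2 ratio was -2.82, -2.73 and -2.85, and it was called lower at -2.80 ± 0.06 (SD, n = 3, limma adjusted p = 1.31e-05), or 6.98-fold, and at -1.48 under median centring. Both channels were well above background on each array. Of the 5 probes tied to Acta2, 2 were thus called lower and 3 were not called.

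Actg2 encodes smooth muscle gamma-actin, the enteric form. Its single probe A_51_P241269 had Cy5 intensities of 3707, 3832 and 3545, or 51.1, 51.7 and 61.9 times the negative control. On the 3 arrays the log2 ratio was 0.55, 0.69 and 0.53. All arrays lay above 0, at 0.59 ± 0.09 (SD, n = 3, limma adjusted p = 0.00063), with 2.11 before loess and a call higher at 1.96 under median centring. Actb, the cytoplasmic beta-actin of every cell, was at 0.72 ± 0.13 (SD, n = 3), and under median centring it was called higher at 1.74. Acta1, skeletal muscle actin, was called lower at -2.09 ± 0.18 (SD, n = 3), and Actc1, cardiac actin, was at 0.22 ± 0.11 (SD, n = 3) and was called higher at 1.60 under median centring. Actin genes are very alike in sequence, the probe sequences are not in the files used here, and whether a probe also read another actin was not tested.

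**Figure D2:**
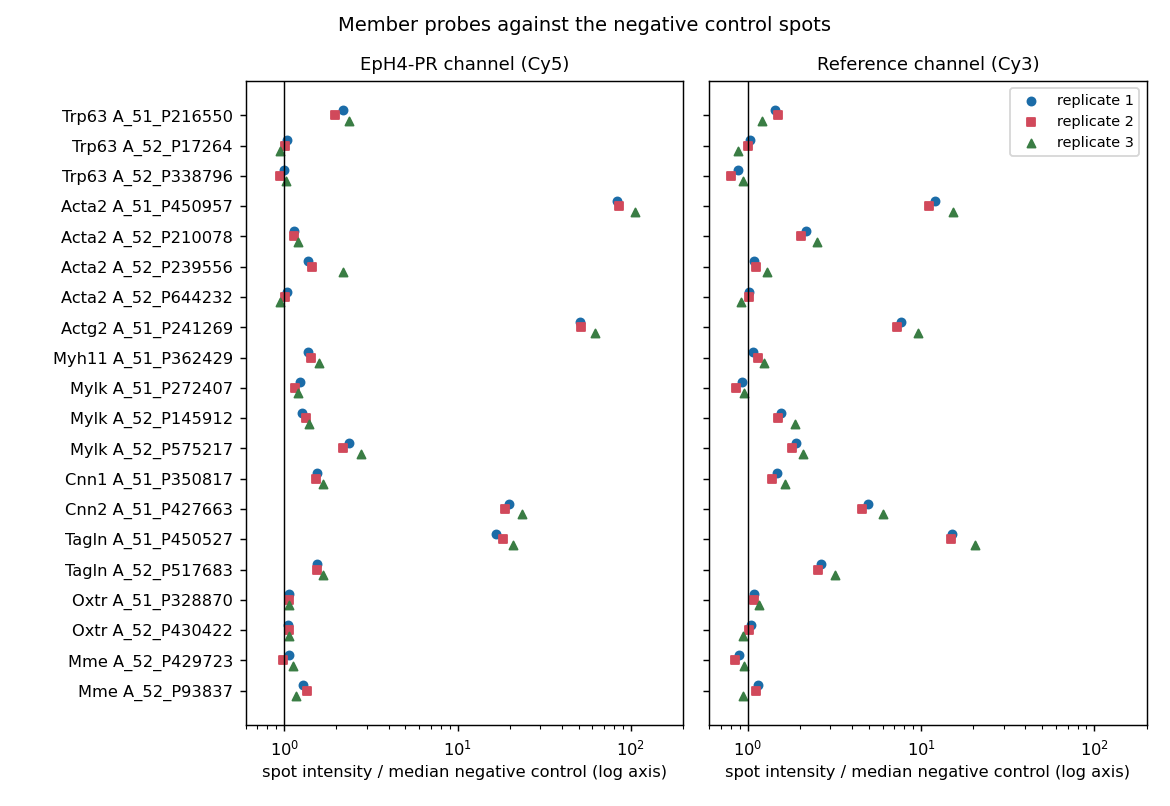
Mean spot intensity as a multiple of the median negative control spot of the same array (x axis, log scale) for each member probe (y axis), in the EpH4-PR channel (left) and the reference channel (right), with a point for each of replicates 1, 2 and 3. The line at 1 is the negative control. In EpH4-PR, Acta2 A_51_P450957, Actg2, Cnn2 and Tagln A_51_P450527 stood well above it, at 16.7 to 105 times, and the other probes lay at 0.942 to 2.77 times.

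The plot of intensities shows which ratios rest on bright spots and which on dim ones. The 4 bright probes stood far above the negative control in both channels. The other 16 lay at 0.942 to 2.77 times it in EpH4-PR, so their ratios compare small signals. Brightness of different probes does not order the genes by level.

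The myosin side of the apparatus was measured by Myh11 and Mylk. Myh11 encodes the smooth muscle myosin heavy chain. Its probe A_51_P362429 read 1.37, 1.43 and 1.58 times the negative control in Cy5 and exceeded background in both channels on every array. The log2 ratio was 0.14, -0.09 and -0.20. The arrays straddled 0, with a mean of -0.05 ± 0.18 (SD, n = 3, limma adjusted p = 0.616), so no difference from the reference was detected at this spread, and the mean was 0.10 with the scanner ratio.

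Mylk encodes myosin light chain kinase, which switches on contraction. Its 3 probes did not give 1 value. A_52_P145912 had log2 ratios of -0.98, -0.92 and -1.38, with replicate 3 the lowest. It was called lower at -1.09 ± 0.25 (SD, n = 3, limma adjusted p = 0.000736), or 2.13-fold, and was not called without replicate 3 (-0.95) or under median centring (-0.95). This probe was also dim, at 1.27 to 1.39 times the negative control in Cy5 and 1.49 to 1.87 times in Cy3. Its ratio was -2.06 with normexp offset 0 and -2.37 with the scanner ratio, so the fold depends on the setting. A_52_P575217 was nearly the same on every array, at -0.87, -0.89 and -0.91. Its mean of -0.89 ± 0.02 (SD, n = 3, limma adjusted p = 8.52e-05) stayed short of a log2 ratio of -1, though it was called lower at -1.29 with normexp offset 0. A_51_P272407 lay on the other side, at 0.34, 0.42 and 0.17, with a mean of 0.31 ± 0.13 (SD, n = 3, limma adjusted p = 0.0116). It was the member probe called higher with normexp offset 0, at 1.44, and was at 0.07 under median centring. The last probe read 0.853 to 0.946 times the negative control in Cy3 and 1.16 to 1.23 times in Cy5, and its log2 ratio exceeded those of the other probes by 1.40 ± 0.13 and 1.20 ± 0.11 (SD, n = 3).

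Calponins and transgelins bind actin filaments. Tagln, or SM22 alpha, is an early smooth muscle marker, and both its probes were called lower. A_51_P450527 had Cy5 intensities of 1212, 1361 and 1190 and Cy3 intensities of 1813, 1817 and 1877. Its log2 ratio was -2.07, -1.88 and -2.14. All arrays lay far below 0, and the probe was called lower at -2.03 ± 0.14 (SD, n = 3, limma adjusted p = 3.41e-05), or 4.08-fold. Before loess its mean was -0.53, and under median centring it was -0.68 and not called.

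The dimmer Tagln probe gave nearly the same ratio under loess with offset 50. A_52_P517683 read 1.55, 1.54 and 1.68 times the negative control in Cy5 and 2.65, 2.55 and 3.20 times in Cy3. Log2 ratios of -2.09, -2.07 and -2.32 lay close together. The probe was called lower at -2.16 ± 0.14 (SD, n = 3, limma adjusted p = 3.03e-05), or 4.48-fold, and was also called lower under median centring, at -1.59. The probes differed by 0.13 ± 0.10 (SD, n = 3) on the same array. Under other settings they lay further apart, with the dimmer at -3.18 and the brighter at -2.12 with normexp offset 0, and at -3.32 and -2.15 with the scanner ratio. Their paralogue Tagln2, found in many cell types, was at 0.78 ± 0.08 (SD, n = 3), with a call higher at 2.18 under median centring, and the Tagln3 probes were at -0.30 and 0.07.

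Cnn1 encodes basic calponin, the form of differentiated smooth muscle. Its probe A_51_P350817 had log2 ratios of -0.57, -0.58 and -0.88. All arrays lay below 0, at -0.68 ± 0.17 (SD, n = 3, limma adjusted p = 0.00151), short of a call. It was called lower at -1.23 with normexp offset 0 and at -1.41 with the scanner ratio. The intensity was 1.53 to 1.67 times the negative control in Cy5 and 1.38 to 1.64 times in Cy3.

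Cnn2 encodes a calponin that is not limited to smooth muscle, and its promoter holds the CArG box shown above. Its probe A_51_P427663 was bright in EpH4-PR, with Cy5 intensities of 1431, 1390 and 1353 against 588, 554 and 550 in Cy3. The log2 ratio was -0.02, 0.07 and -0.05. The arrays lay on both sides of 0, at a mean of 0.00 ± 0.06 (SD, n = 3, limma adjusted p = 0.984). Before loess the mean was 1.40, and under median centring the probe was called higher at 1.25. Cnn3, the acidic calponin, was at 0.41 ± 0.05 (SD, n = 3) and was called higher at 1.80 under median centring.

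**Figure D3:**
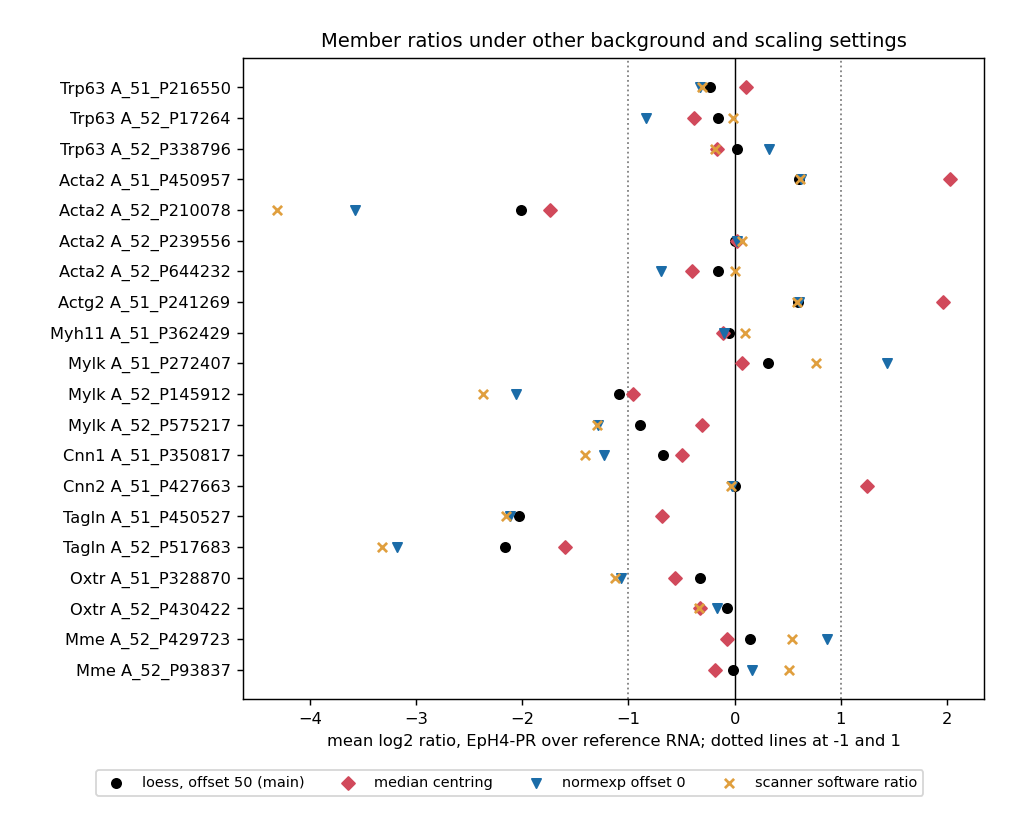
Mean log2 ratio over 3 arrays (x axis) of each member probe (y axis) under loess with normexp offset 50, under median centring, under normexp offset 0 and with the scanner ratio. Median centring places bright probes further to the right (Acta2 A_51_P450957 at 2.03, Actg2 at 1.96, Cnn2 at 1.25 and Tagln A_51_P450527 at -0.68), and the other settings spread dim probes such as Mylk A_52_P145912 further from 0.

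The plot of settings shows that the 4 bright probes moved most under median centring, while several dim ones moved further from 0 under the other background corrections. Under normexp offset 0, 7 member probes were called lower and 1 higher, where 3905 and 3125 of all probes were. Tagln A_52_P517683 and Acta2 A_52_P210078 were called lower under each setting plotted.

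The surface proteins of myoepithelial cells were the least detected. Oxtr encodes the oxytocin receptor, through which the cells contract. Probe A_51_P328870 read 1.06 to 1.07 times the negative control in Cy5 and was on no array well above background in EpH4-PR, but was so in the reference on 2 of 3. The log2 ratio was -0.27, -0.30 and -0.41, with all arrays below 0 at -0.33 ± 0.07 (SD, n = 3, limma adjusted p = 0.00423). The probe was called lower at -1.07 with normexp offset 0 and was at -0.56 under median centring. Since its EpH4-PR channel was at background, no fold is given. A_52_P430422, also at background in EpH4-PR on every array, had a log2 ratio of -0.07 ± 0.12 (SD, n = 3, limma adjusted p = 0.339), with replicate 3 above 0 and the other arrays below.

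Mme encodes neprilysin (CD10), a peptidase that marks the myoepithelial surface. Probe A_52_P429723 was well above background in neither channel on any array. Its log2 ratio was 0.18, 0.13 and 0.12 (mean 0.14 ± 0.04, SD, n = 3), and -0.08 under median centring. A_52_P93837 was well above background in EpH4-PR on 2 of 3 arrays. Over all 3 arrays it read 1.17 to 1.35 times the negative control in Cy5. Its log2 ratio of -0.17, -0.09 and 0.22 fell on both sides of 0, at -0.01 ± 0.21 (SD, n = 3), and the mean was 0.52 with the scanner ratio.

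Other genes of the same machinery were read from lists. Among contractile partners of the members, 4 of 42 probes were called higher and 3 lower, with a median log2 ratio of 0.09, and 19 were called higher and 1 lower under median centring. Myl9, the regulatory light chain that Mylk phosphorylates, was called lower at -4.23 ± 0.12 (SD, n = 3), or 18.8-fold. Csrp2, a smooth muscle LIM protein, was called lower at -2.10 ± 0.04 (SD, n = 3) but not under median centring (-0.86). Cald1, or caldesmon, an actin-binding regulator of contraction, was called higher at 2.00 ± 0.07 (SD, n = 3) on 1 probe and at 1.48 ± 0.07 on the other. Of 19 probes of paralogues, 2 were called higher and 1 lower (8 and 1 under median centring). The higher ones were a probe each of Myh14, a nonmuscle myosin heavy chain, at 3.66 ± 0.13, and Trp53, the p53 relative of p63, at 1.53 ± 0.22 (SD, n = 3), and both genes had a second probe that was not called.

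None of the 8 probes of serum response factor and its partners was called by limma in either direction, and 1 was called higher under median centring. At an unadjusted p under 0.05, 1 lay above 0 and 3 below, where 29% and 28.4% of all probes did. These shares also apply to the counts at this level in the lists below. The Srf probe was at -0.73 ± 0.05 (SD, n = 3, limma adjusted p = 0.000183), and at 0.41 under median centring, so its direction rests on the scaling. Myocd encodes myocardin, the smooth muscle partner of serum response factor. Its probes were at -0.16 ± 0.03, where it was on no array well above background in EpH4-PR, and at 0.11 ± 0.09 (SD, n = 3), or -0.13 under median centring.

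Known targets of p63 gave calls in 1 direction. Of 13 probes, 4 were called higher by limma and none lower, with a median of 0.36 and 1 probe below 0 at an unadjusted p under 0.05. The remaining 9 were not called, and 3 of the 13 were on no array well above background in EpH4-PR. Perp, a desmosome component, was at 2.47 ± 0.02 and Pkp1, plakophilin 1, at 1.88 ± 0.09 (SD, n = 3). With normexp offset 0 and with the scanner ratio 1 target probe was called lower. These genes are also used by other epithelial cells.

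In the list of other basal mammary genes, 2 of 28 probes were called higher and 5 lower, against 4 and 1 under median centring. Snai2, a repressor active in basal cells, was called lower at -3.02 ± 0.14 (SD, n = 3). Sparc, a matrix protein, was called lower at -2.10 ± 0.08 (SD, n = 3) but not under median centring (-0.68). Cav1, caveolin 1, was called lower at -1.37 ± 0.03 (SD, n = 3) on 1 probe, which was at 0.06 under median centring, while its other probe was at -0.02, or 0.74 under median centring.

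The partners of the surface proteins were read in the same way. In oxytocin signalling 2 of 20 probes were called lower by limma and none higher (2 above 0 at an unadjusted p under 0.05), against 2 higher and none lower under median centring. Both lower probes carry the array name Itpr5, which RefSeq lists as Itpr2, a calcium channel of internal stores. The stronger was at -1.91 ± 0.02 (SD, n = 3) and at -0.72 under median centring. The other 3 probes of Itpr2 were not called, including A_51_P468269, which the array itself names Itpr2, at 0.10 ± 0.04 (SD, n = 3). Of 9 probes of other membrane peptidases, 2 were called lower, Anpep at -1.74 ± 0.15 and Ece1 at -1.20 ± 0.09 (SD, n = 3), the latter at -0.01 under median centring.

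**Figure D4:**
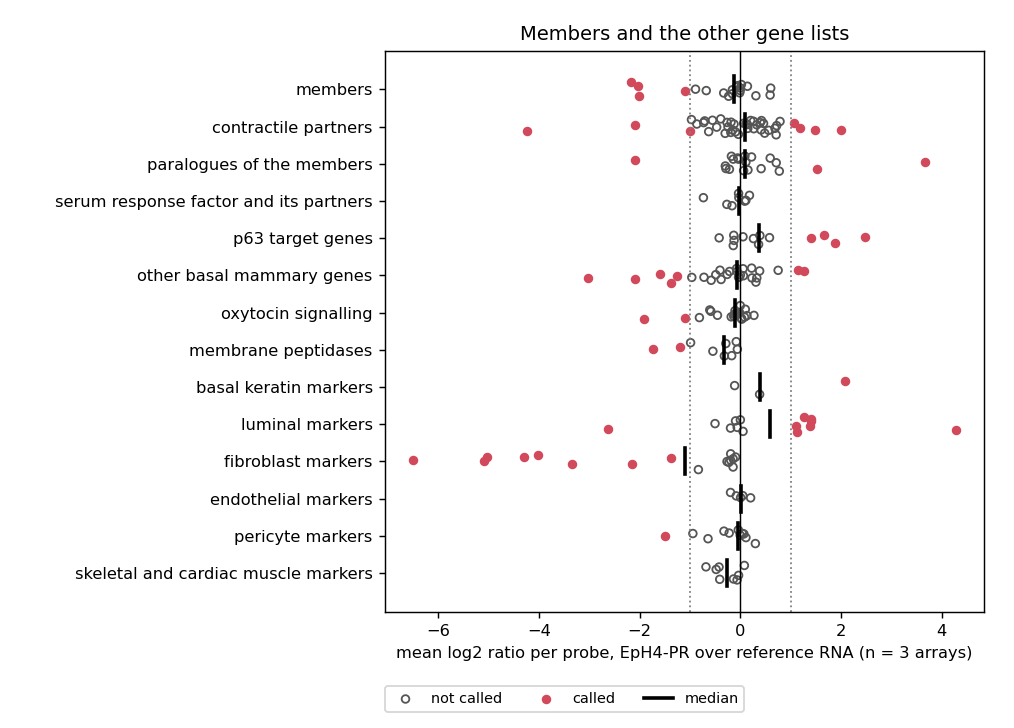
Mean log2 ratio over 3 arrays (x axis) of every probe in each gene list (y axis), with called probes filled, others open and the list's median as a bar. The members span -2.16 to 0.60, with 4 called probes, all below 0. Fibroblast markers reach -6.51, and the highest probe shown belongs to the luminal markers at 4.29.

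The plot of lists sets the members beside markers of the cell types that a mammary culture or the reference RNA could hold. The label of an epithelial line was checked first. Of 14 probes of luminal markers, 7 were called higher and 1 lower, with a median of 0.59. Cdh1, E-cadherin, was at 4.29 ± 0.10 (SD, n = 3), Krt8, a luminal keratin, at 1.40 ± 0.05 and 1.12 ± 0.04 on its probes, and Krt19, also a luminal keratin, was called lower at -2.62 ± 0.18. Of the basal keratins, Krt14 was called higher at 2.08 ± 0.13, while Krt17 was at 0.38 ± 0.08 and Krt5 at -0.11 ± 0.07 (SD, n = 3). Under median centring Krt17 was called higher at 1.01 and Krt5 turned to 0.41. All 3 basal keratin probes were well above background in EpH4-PR on every array. The basal markers therefore did not share a direction, with Krt14 high and Tagln low against the same reference.

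Tagln, Acta2, Mylk and Myl9 are also expressed by fibroblasts, pericytes and smooth muscle. Fibroblast markers were called in the same direction as the called probes of these genes. Acta2 and Mylk also had probes above 0, A_51_P450957 at 0.60 and A_51_P272407 at 0.31. Of 16 fibroblast probes, 8 were called lower by limma and none higher, with a median of -1.10 and no probe above 0 at an unadjusted p under 0.05. Vim, vimentin, was at -6.51 ± 0.11, and the collagens Col3a1 and Col1a1 reached -5.10 ± 0.10 and -5.03 ± 0.12 (SD, n = 3), each on the lowest of its probes. The ratio alone does not say in which RNA a level was unusual, and the part of mesenchymal RNA in the reference in these low ratios was not tested. Pericyte markers had 1 of 11 probes called lower, Cspg4 at -1.49 ± 0.23 (SD, n = 3), whose other probes were not called, at -0.32 and 0.30. None of the 5 endothelial probes was called by limma (median 0.01), with 1 above and 1 below 0 at an unadjusted p under 0.05. None of the 8 skeletal and cardiac muscle probes was called (median -0.27), with 4 below 0 at that level, and 3 were called lower with normexp offset 0.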

How the data were processed

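The authors deposited the scanner output (Agilent Feature Extraction 8.1.1.1), in which each spot has an intensity per channel, a local background and a Cy5 to Cy3 ratio on the log10 scale. The table of fold changes that the authors deposited holds their own comparison of unnamed groups (ratios, folds, p-values, intensities) and was not used. With R 4.3.3 and limma 3.58.1, mean spot intensity was corrected for median local background by normexp (offset 50) and normalized by loess within each array, with 150, 18 and 3 outlier spots and all control spots at weight 0. Spots of a probe were averaged, and the log2 ratio was tested against 0 with lmFit and eBayes. Tables were made in Python 3.11.15. Precision is limited by the 3 arrays. The negative control spots lay above the local background, so this correction leaves signal on dim spots. RefSeq accessions gave current symbols for 21445 probes. The files name no genome build. Named genes were all members, plus up to 3 called genes with the largest ratio per list and the paralogues and serum response factor genes a sentence needs. Krt5 and Krt17 were added as the rest of a short list, and Cspg4 as the lone call of its list. A gene that this rule would name is not reported here. Members, lists and rules were chosen with earlier results of these data known. Alternatives covered background, scaling, spot intensity, outlier spots, dim probes, each array left out, the t-test per probe and a trend of the spread with intensity. The scripts were tested on simulated data.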

Additional observations from a re-analysis of the deposited data

How the results depend on the processing

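Across all alternatives, 198 of 232 member values kept their direction and their side of the threshold, 9 passed it, 4 no longer did and 21 turned in sign. The last count includes Acta2 A_52_P644232 with the scanner ratio, which fell to 0.00 and did not pass to the other side. Of the other genes named, 450 of 465 values kept both. Median centring gave 3 member probes higher and 2 lower (7031 and 708 of all probes), and normexp offset 0 gave 1 and 7 (3125 and 3905 of all). With the scanner ratio 3616 probes in all were higher and 3887 lower. Over the other lists together 20 probes were higher and 23 lower, against 48 and 13 under median centring, 42 lower with normexp offset 0 and 40 lower with the scanner ratio. The cause was not tested. Of the member values that turned, the largest was 0.52, for Mme A_52_P93837 with the scanner ratio. Under median centring Trp63 A_51_P216550 was 0.11, Trp63 A_52_P338796 -0.17, Acta2 A_52_P239556 0.021 and Mme A_52_P429723 -0.075, and, of other genes, Srf was 0.41, Myocd A_52_P557424 -0.13 Krt5 0.41, Cav1 A_51_P107302 0.74 and Cav1 A_52_P306845 0.056. Under normexp offset 0 Cnn2 was -0.026, Acta2 A_52_P239556 0.020 and Mme A_52_P93837 0.16. With the scanner ratio Myh11 was 0.10, Cnn2 -0.037, Acta2 A_52_P239556 0.070, Acta2 A_52_P644232 0.00, Trp63 A_52_P338796 -0.19 and Mme A_52_P93837 0.52. With the median spot intensity Trp63 A_52_P338796 was -0.015 and Mme A_52_P93837 0.0025. Leaving out each replicate in turn gave -0.0033 to 0.059 for Trp63 A_52_P338796, -0.13 to 0.066 for Mme A_52_P93837, -0.032 to 0.025 for Cnn2, -0.15 to 0.028 for Myh11 and -0.040 to 0.039 for Acta2 A_52_P239556. Mylk A_52_P145912 was the 1 member probe that lost its call without a replicate, and also by the t-test per probe with Benjamini-Hochberg adjustment. Leaving out dim probes removed 8 member probes, which then have no value. No paired analysis was possible because the labels give 1 group. No slide could be fitted as a block, since each holds 1 array.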
